A study of Mus musculus with 6 samples.

Results

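The calcium/calmodulin-dependent kinases considered here are 10 genes of the 17348 genes in the expression table: the CaMKII genes Camk2a, Camk2b, Camk2d and Camk2g, the CaMKI genes Camk1 and Camk1d, the CaMKIV gene Camk4, the upstream kinases Camkk1 and Camkk2, and the pseudokinase Camkv. They were taken by gene symbol, and the family was chosen by a measured value, since Camk2a had been seen to be higher in the knockout cortex of these same libraries. The difference between genotypes in the 10 genes is therefore given as a description, without a test. The libraries were RNA-seq of embryonic mouse cortex at E13.5, with 3 WT and 3 Ybx1 cKO libraries. The cKO embryos carried Nestin-Cre and floxed alleles on both copies of Ybx1 (Nestin-Cre, Ybx1 fl/fl), and the controls were littermates labelled WT, and the study describes the controls of its mouse line as Ybx1 fl/fl without Cre. The labels give no treatment for either group. Nestin-Cre acts in neural progenitors and is inherited by the neurons and glia they make. Whether it also acted in blood, vessel or meningeal cells was not examined here. The floxed mice were made on C57BL/6J, and the labels do not say how many embryos went into a library.

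When calcium enters a neuron it binds calmodulin, and calcium-loaded calmodulin opens the catalytic domain of these kinases. CaMKII subunits assemble into large mixed holoenzymes that can phosphorylate themselves and then stay active after calcium has fallen, a property best known from synaptic plasticity in the mature forebrain. CaMKI and CaMKIV work as single subunits that need a further phosphorylation by CaMKK, and they are known for effects on neurite growth and on transcription through CREB. In the embryonic cortex, progenitors and newly born neurons show calcium transients before synapses are mature.

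Library depth was even, from 15907486 to 16282921 estimated counts. Ybx1 stood at 1021, 528 and 1219 CPM (counts scaled to library size) in WT replicates 1 to 3 and at 83.0, 117 and 147 CPM in the cKO replicates, so that the cKO mean was 12.5% of the WT mean. The library labelled WT replicate 2, at 528 CPM, stood well below WT replicates 1 and 3, at 1021 and 1219 CPM. It was also well above the highest cKO value, 147 CPM. Whether the label or genotype of this library is right was not tested, and the label was kept as given. Estimates without it, alone and together with cKO replicate 3, are among the alternatives. The summed level of 6 epidermal marker genes was 0.126 to 0.940 CPM in 5 libraries and 231 CPM in cKO replicate 3, and that of 6 mesenchyme and meninges genes was 8.17 to 16.7 CPM in 5 libraries and 518 CPM in cKO replicate 3. The markers of radial glia, intermediate progenitors and cortical neurons were present in all 6 libraries, with summed levels of 1667 to 2481, 894 to 1160 and 4093 to 5289 CPM. The remaining lists were summed too: Cajal-Retzius cells 314 to 510 CPM, interneurons 155 to 248 CPM, ganglionic eminence and striatum 553 to 684 CPM, endothelium 56.1 to 79.4 CPM, microglia 13.7 to 23.9 CPM, erythroid cells 478 to 839 CPM and muscle 1.13 to 1.996 CPM. No list had an analysed gene at 0 in all 6 libraries, and the muscle genes Myod1 and Myog were not analysed. The epidermal genes Krt5 and Krt14 were at 0 in WT replicates 1 and 2 and in cKO replicates 1 and 2. Among the 13340 genes that passed the count filter, edgeR's quasi-likelihood test called 0 genes higher (0%) and 0 lower (0%) at an adjusted p of 0.05. In that test 234 and 242 of the 13340 genes had an unadjusted p under that level, together a share below 0.05. DESeq2 called 2 and 2. The lowest adjusted p in edgeR's test was 0.095, so the deleted gene Ybx1 was itself not called. A lack of calls here therefore does not show a lack of change. The paper reports up- and downregulated genes for its E13.5 cKO cortex, and its methods text names no test for them. All 3 cKO libraries lay above all 3 WT libraries for 562 genes (4.21%) and below them for 644 (4.83%). In bulk tissue, fewer cells of a type and less RNA per cell cannot be told apart.

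All 10 kinase genes passed the count filter, and at this stage they spanned an 8.99-fold range of length-scaled level (TPM, transcript abundance scaled for gene length and depth) between the WT means of the highest and lowest gene. The highest was Camk2g, the CaMKII gamma gene, whose product is known for carrying calmodulin to the nucleus, at 46.2 ± 4.596 TPM in WT (SD, n = 3) and 47.6 ± 4.07 TPM in cKO. Camkk2, Camk2b, Camk1 and Camkv followed in WT at 25.5 ± 4.13, 25.4 ± 3.09, 25.3 ± 2.30 and 21.2 ± 4.97 TPM, and the ranges of neighbours in this group overlapped. A step without overlap then separated Camkv from Camk2a, the CaMKII alpha gene that dominates the mature forebrain, which was at 8.43 ± 0.618 TPM in WT. Camk1d, Camkk1 and Camk2d had WT means of 7.04 ± 1.01, 6.80 ± 1.31 and 6.49 ± 0.858 TPM, again with overlapping ranges between neighbours. Camk4, the gene of the nuclear CREB kinase CaMKIV, was lowest at 5.14 ± 0.322 TPM, below every WT value of Camk2d. In cKO the order was Camk2g, Camk1, Camk2b, Camkv, Camkk2, Camk2a, Camk2d, Camkk1, Camk1d and Camk4. Camk2g, Camk2b, Camk2a, Camkk1 and Camk4 thus held the same place in both genotypes. The sum over the 10 genes ran from 161 to 209 TPM per library.

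**Figure D1:**
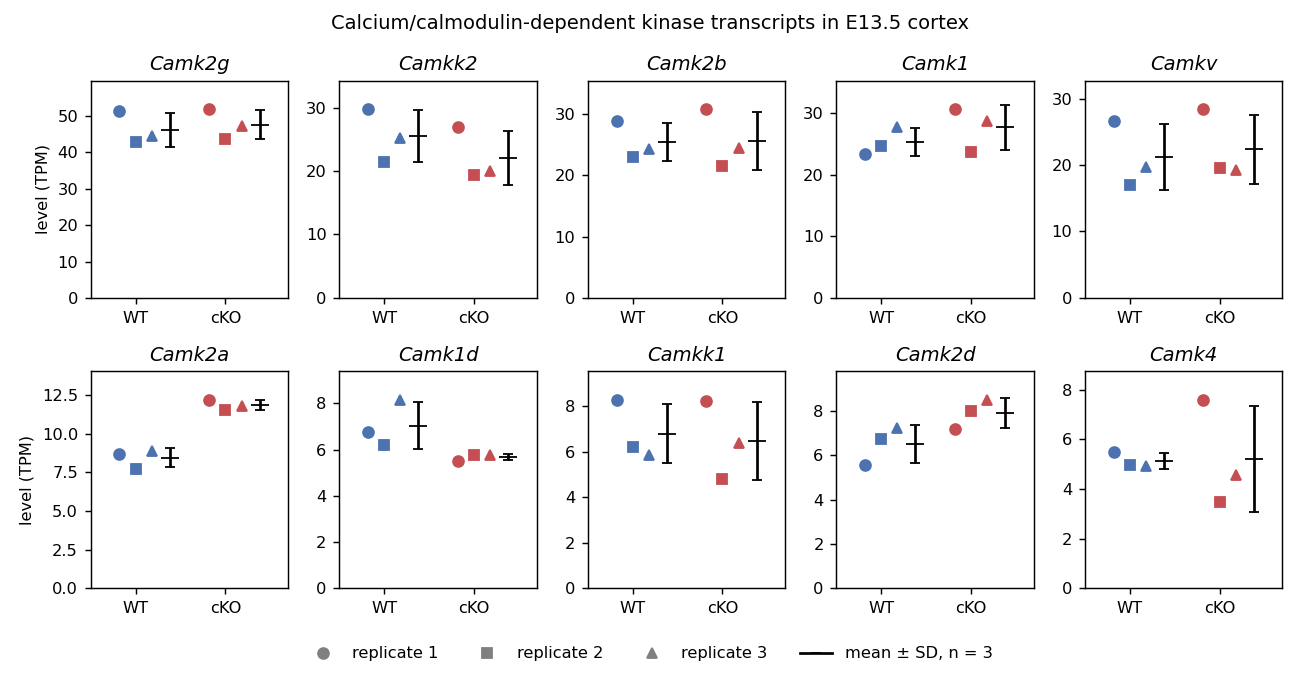
Level of each kinase gene in TPM (vertical axes, each starting at 0) in the 3 WT (blue) and 3 cKO (red) libraries, with the mean ± SD in black and the genes in order of their WT mean. Camk2a is the gene whose cKO points (11.53 to 12.19 TPM) lie clear above its WT points (7.73 to 8.90 TPM), Camk1d lies lower in cKO, and the cKO points of Camk4 spread from 3.47 to 7.60 TPM around nearly the same mean as WT.

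Among the CaMKII genes, Camk2a (chr18:60925307-60988152, GRCm38) was the one by which the family had been picked. It was at 18.2, 18.1 and 20.4 CPM in WT replicates 1, 2 and 3 and at 26.5, 27.2 and 26.2 CPM in the cKO replicates. The lowest cKO library was above the highest WT library. The 3 cKO values had a CV of 1.90%, under the 5.22% that counting error alone gives at the mean count of all 6 libraries, 367. With 3 values this closeness is not read as precision. The means were 18.9 ± 1.28 CPM in WT and 26.6 ± 0.505 CPM in cKO (SD, n = 3), a log2 fold change of 0.50 (SE 0.09), or 41.1% more. Ordered by fold change from the top, it stood at place 438 of the 13340 genes. The estimate stayed between 0.47 and 0.55 when any 1 library was left out and was 0.48 without WT replicate 2 and cKO replicate 3. Since Camk2a was picked for its higher level in these same libraries, this narrow range is no support for the difference.

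Camk2b (chr11:5969629-6066357), whose beta subunit binds actin filaments, was at 50.8, 44.1 and 46.2 CPM in WT and at 54.6, 41.2 and 45.2 CPM in cKO. The ranges overlapped fully and the log2 fold change was 0.00 (SE 0.12). Camk2g (chr14:20734873-20794157) was at 78.4, 71.6 and 72.8 CPM in WT and 80.1, 72.8 and 76.0 CPM in cKO, a log2 fold change of 0.04 (SE 0.07). It was the best counted of the 10 genes and had the smallest standard error, and its genotype ranges overlapped.

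Camk2d (chr3:126595487-126846326), the delta gene, which is broadly expressed and prominent in heart, was at 10.7, 14.1 and 14.4 CPM in WT and at 12.8, 15.92 and 17.1 CPM in cKO. The cKO mean was higher by a log2 fold change of 0.23 (SE 0.15), but cKO replicate 1 lay below WT replicates 2 and 3. Without WT replicate 1 the value was 0.11, and without cKO replicate 1 it was 0.35.

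**Figure D2:**
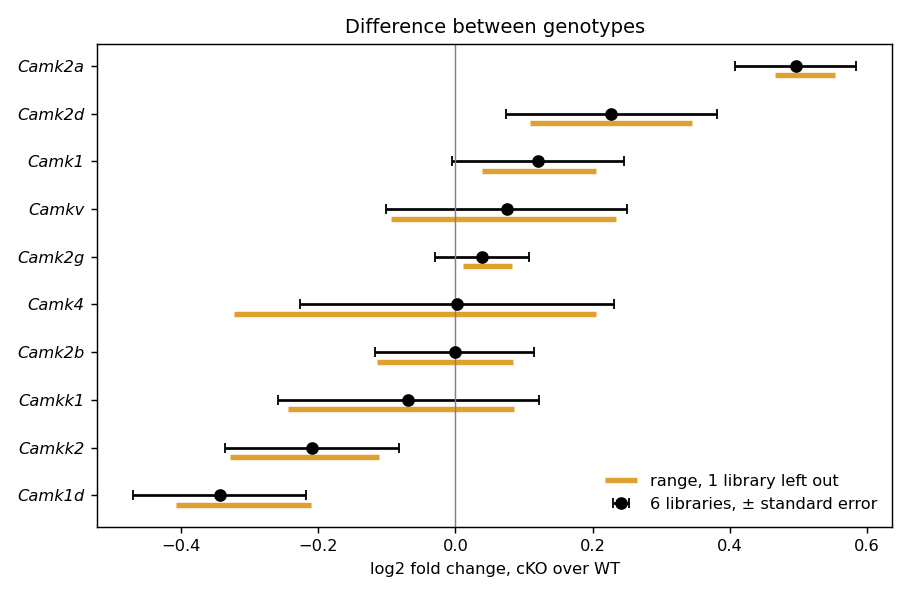
Log2 fold change of cKO over WT for the 10 kinase genes (black, ± standard error, 3 against 3 libraries) and the range of the estimate when 1 library at a time is left out (orange). Camk2a at 0.50 is at the top and Camk1d at -0.34 at the bottom, and the orange ranges of Camk2b, Camk4, Camkk1 and Camkv cross 0.

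The CaMKII subunits share 1 holoenzyme, so the make-up of the CaMKII transcripts was set out as each gene's percent of their summed TPM. Camk2g made up 53.4 ± 1.02% in WT and 51.3 ± 0.365% in cKO (SD, n = 3), and Camk2b 29.3 ± 1.10% and 27.4 ± 2.46%. Camk2a made up 9.16, 9.64 and 10.5% in WT replicates 1 to 3 and 11.95, 13.6 and 12.8% in the cKO replicates. Every cKO share of Camk2a was above every WT share, by 3.01 percentage points between the means, and every cKO share of Camk2g was below every WT share, by 2.12 points. The share of Camk2d overlapped between genotypes (7.58 ± 1.49% and 8.57 ± 1.32%). Since the 4 shares sum to 100 and Camk2a was picked for its rise, the lower share of Camk2g is not a separate observation. Set against Camk2b alone, Camk2a transcripts were 29.99, 33.6 and 36.6% of the Camk2b level in WT and 39.6, 53.5 and 48.0% in cKO. The summed CaMKII level itself overlapped, at 86.6 ± 7.30 TPM in WT and 93.0 ± 8.60 TPM in cKO.

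**Figure D3:**
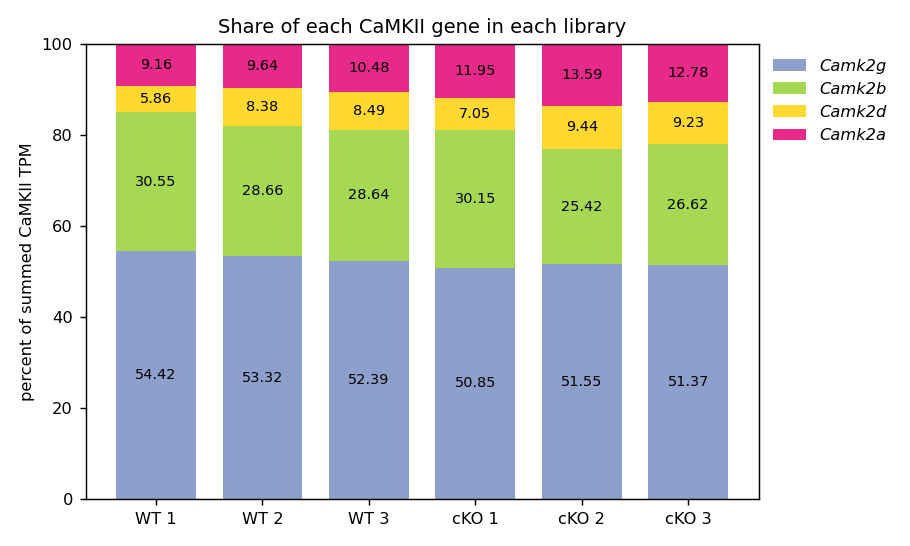
Stacked bars of each CaMKII gene's percent of the summed CaMKII TPM in each of the 6 libraries. Camk2g holds more than 50% in every bar, and the top segment, Camk2a, grows from 9.16 to 10.5% in WT to between 11.95 and 13.6% in cKO.

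Of the CaMKI genes, Camk1d (chr2:5293457-5714860), the longest of the 10 genes at 421.4 kb, was the other gene without overlap between genotypes. It was at 20.5, 20.9 and 26.7 CPM in WT and at 16.6, 19.1 and 18.1 CPM in cKO. Its highest cKO value was under its lowest WT value, although the gap between the nearest 2, cKO replicate 2 and WT replicate 1, was small. The means of 22.7 ± 3.47 and 17.9 ± 1.24 CPM gave a log2 fold change of -0.34 (SE 0.13), or 21.2% less. The size leaned on WT replicate 3, the highest library: without it the log2 fold change was -0.21, and without WT replicate 1 it was -0.41. Leaving out WT replicate 2 and cKO replicate 3 together also gave -0.41. Camk1 (chr6:113334124-113343922), the alpha isoform of CaMKI, was at 12.2, 14.1 and 15.6 CPM in WT and 16.2, 13.48 and 15.8 CPM in cKO. Its ranges overlapped, with a log2 fold change of 0.12 (SE 0.13). Camk1 lies over the DNA repair gene Ogg1 and had fractional estimated counts in 5 libraries, so its reads were partly shared out by the counting model and its level is less certain. One gene of 10 above and 1 below without overlap stands beside shares of 4.21% and 4.83% among all tested genes, and nothing is read from this, since Camk2a was 1 of them by choice.

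Camk4 (chr18:32934941-33195767) had the widest spread of the 10 genes in cKO and the narrowest in WT, as SD relative to the mean CPM. It was at 29.7, 29.5 and 28.4 CPM in WT and at 41.5, 20.4 and 26.0 CPM in cKO. The WT values all fell inside the cKO range, and the means of 29.2 ± 0.694 and 29.3 ± 10.9 CPM gave a log2 fold change of 0.00 (SE 0.23). The CV was 2.38% in WT and 37.3% in cKO. The direction of the difference was set by single libraries, at -0.32 without cKO replicate 1 and 0.21 without cKO replicate 2.

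The upstream kinases were both somewhat lower in the cKO mean and overlapped between genotypes. Camkk2 (chr5:122718380-122779522), which activates CaMKI and CaMKIV and also the energy sensor AMPK, was at 70.4, 55.1 and 61.8 CPM in WT and at 63.2, 49.6 and 49.2 CPM in cKO. cKO replicates 2 and 3 lay below every WT library and cKO replicate 1 did not, for a log2 fold change of -0.21 (SE 0.13). The gene overlaps the purinergic receptor gene P2rx4, and whether strand was used in counting is not given, so reads of the pair may not be fully separate. Its estimated counts were fractional in 0 libraries, against 5 for Camk1, so the counting model split no reads of Camkk2. Camkk1 (chr11:73016043-73042073) was at 12.0, 9.84 and 9.12 CPM in WT and at 12.2, 7.58 and 9.71 CPM in cKO, a log2 fold change of -0.07 (SE 0.19). Camkv (chr9:107935851-107949691), which encodes a kinase-like protein without catalytic activity that supports dendritic spines, was at 33.3, 23.2 and 26.4 CPM in WT and 35.9, 26.5 and 25.0 CPM in cKO. Its log2 fold change of 0.07 (SE 0.18) was smaller than the difference between replicates of one genotype.

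Among the 8 genes whose genotypes overlapped, Camk2d, Camk2g and Camk1 stayed positive and Camkk2 stayed negative in the 15 other settings tried. These settings reuse the same libraries, so a steady sign is not separate support. The log2 fold changes of Camk2g and Camk1 were smaller than their SEs, and those of Camk2d and Camkk2 were larger in size. The sign of Camkk1 and Camkv held in 13 settings each, and that of Camk2b and Camk4 in 8 each. For Camk2a and Camk1d the sign was fixed by the lack of overlap and says nothing about stability.

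The spread within a genotype was shared by several of the kinases. Replicate 1 was the highest library of its group for 6 of the 10 genes in WT and for 7 in cKO, against 40.3% and 38.6% of all tested genes, and replicate 2 was the lowest for 5 in each genotype. Camk2b, Camk2g, Camk4, Camkk1, Camkk2 and Camkv were the 6 genes highest in replicate 1 of both groups. Camkv, for example, was above its genotype mean by 0.28 in WT replicate 1 and by 0.32 in cKO replicate 1 on the log2 CPM scale. Camk2d went the other way, at -0.27 and -0.24 in those libraries. The summed markers of cortical neurons were 0.13 and 0.24 above their genotype means in WT replicate 1 and cKO replicate 1, and those of radial glia were 0.29 and 0.33 below, at 1722 against 2321 and 2352 CPM in WT and 1667 against 2481 and 2239 CPM in cKO. The part of this balance of markers in the spread of the kinases was not tested. The deviations of Camk2a lay between -0.06 and 0.11 in all 6 libraries. Those of Camk2g, 1 of the 6 genes highest in replicate 1, were as small, between -0.07 and 0.08.

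**Figure D4:**
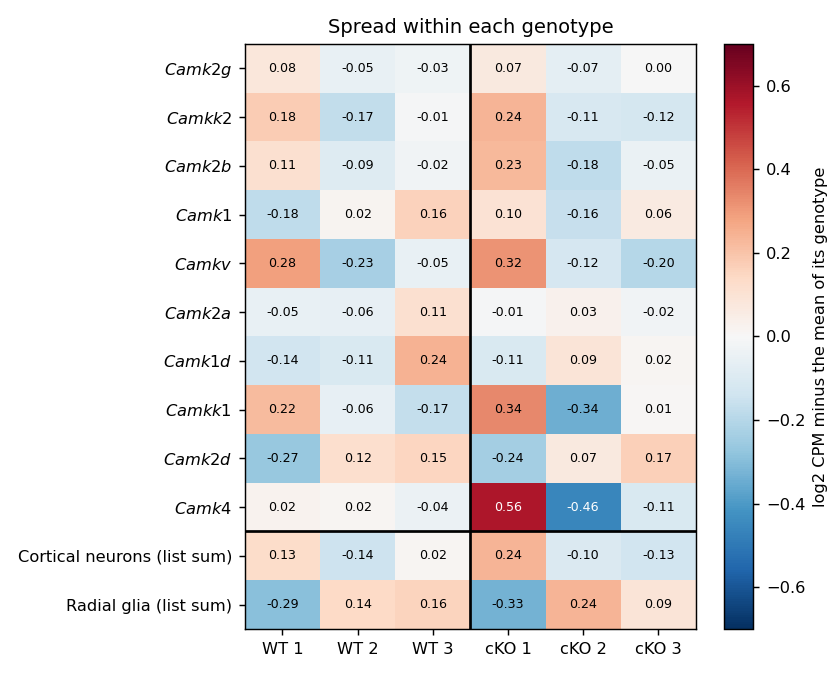
Deviation of each library from the mean of its own genotype, in log2 CPM, for the 10 kinase genes and for the summed markers of cortical neurons and radial glia (red above the mean, blue below). The first WT and first cKO columns are red for Camkk2, Camk2b, Camkv, Camkk1 and the neuron markers and blue for Camk2d and the radial glia markers, and Camk4 reaches 0.56 and -0.46 in cKO replicates 1 and 2.

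Between genotypes, the summed cortical neuron markers overlapped (4257 to 5132 CPM in WT and 4093 to 5289 CPM in cKO), with 1 of 8 higher and 7 lower and a median log2 fold change of -0.07. Those of interneurons did not overlap, at 163, 155 and 215 CPM in WT and 234, 248 and 226 CPM in cKO. Of the 10 interneuron genes tested, 9 were higher in cKO and 0 called, with a median log2 fold change of 0.65, and 4 lay above WT without overlap, beside 4.21% of all tested genes. The ganglionic eminence and striatum list, at 553 to 629 CPM in WT and 582 to 684 CPM in cKO, had 6 of 8 tested genes higher and a median of 0.20. The Cajal-Retzius markers went the other way without overlap, at 509.9, 423.8 and 419.9 CPM in WT and 419.4, 322.9 and 314.4 CPM in cKO, with cKO replicate 1 next to WT replicate 3. Of their 4 genes 3 were lower, 1 without overlap (4.83% of all tested genes) and 0 called, with a median log2 fold change of -0.33. The 4 intermediate progenitor genes were all lower in the fitted estimate, with 0 called and a median of -0.09, and their sums overlapped at 995 to 1160 CPM in WT and 894 to 1072 CPM in cKO. The interneuron sum thus moved in the direction of Camk2a and the Cajal-Retzius sum in that of Camk1d, and their part in the differences of these genes was not tested. The epidermal and mesenchymal genes were high in cKO replicate 3 alone. Camk2a was at 26.2 CPM there, beside 26.5 and 27.2 CPM in cKO replicates 1 and 2. By TPM it was at 11.8 there, beside 12.2 and 11.5 in those replicates, so its place among the 3 depended on the measure. The part of the epidermal and mesenchymal transcripts in its level was not tested.

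The genes with the pattern most like that of Camk2a over the 6 libraries were, by Pearson r of log2 CPM among 11012 genes with a mean of at least 5 CPM, Med27 (r = 0.99), Mpc2 (0.98), Cap1 (0.98), Sertad4 (0.98) and Pard6g (0.97), which encode in turn a Mediator subunit, a subunit of the mitochondrial pyruvate carrier, an actin regulator, a SERTA-domain nuclear protein and a polarity protein. Med27 was at 34.8, 34.9 and 35.6 CPM in WT and at 41.1, 41.7 and 40.5 CPM in cKO, and its log2 fold change of 0.23 was smaller than that of Camk2a. In all, 57 genes reached an r of 0.9. With 6 points in 2 groups these values mostly restate a separation by genotype. Of the other kinases, Camk2d (r = 0.59) and Camk1 (0.50) were nearest to Camk2a, and Camkk2 (-0.55) and Camk1d (-0.62) were farthest.

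The wider pathway was described with a list of 93 genes, of which 91 were in the table and 79 were tested. None was called by edgeR's quasi-likelihood test after adjustment over all 13340 genes, and 0 had an unadjusted p under 0.05. Among all 13340 tested genes, 234 higher and 242 lower had such an unadjusted p. That share is small, so nothing is read from the 0. The adjusted test did not call Ybx1 either, so it could not show that these genes were unchanged. Of the 79 genes, 35 had a positive and 44 a negative log2 fold change, with a median of -0.03 against 0.00 for all tested genes, and 3 lay above and 4 below WT without overlap. These counts are near the 4.21% and 4.83% of all tested genes.

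Calm2 and Calm3 encode calmodulin, the calcium-binding partner of the kinases, and stood at 491 ± 55.0 and 372 ± 12.6 CPM in WT and at 510 ± 9.25 and 378 ± 2.52 CPM in cKO (SD, n = 3). Their fold changes were 0.05 and 0.03 on the log2 scale, and the ranges of each gene overlapped between genotypes. Of the 6 tested genes of calmodulin and its buffers, 5 were positive, and the largest among those of at least 5 CPM were Gap43, the growth-cone protein that holds calmodulin, at 87.4, 88.7 and 86.4 CPM in WT and 112, 91.4 and 88.7 CPM in cKO (log2 fold change 0.16, SE 0.10), and Pcp4, a modulator of calmodulin (-0.09, SE 0.14). Gap43 did not overlap between genotypes, by a margin under that between its own replicates.

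Among 13 tested relatives and inhibitors of the kinases, 5 were positive and 8 negative with a median of -0.05. The elongation factor 2 kinase Eef2k, which calmodulin switches on to slow translation, had the largest difference. It went from 37.9 ± 1.67 CPM in WT to 33.0 ± 3.98 CPM in cKO (log2 fold change -0.20, SE 0.10) without overlap. The gap was narrow, with cKO replicate 3 at 36.5 and WT replicate 3 at 36.8 CPM, while cKO replicate 2 was at 28.6 CPM. The kinase gene Stk17b (-0.18, SE 0.16) followed. The remaining CaMKI genes Camk1g and Pnck, at 0.04 (SE 0.18) and 0.01 (SE 0.09), and the CaMKII inhibitor genes Camk2n1 and Camk2n2, at -0.05 (SE 0.16) and -0.07 (SE 0.15), overlapped between genotypes. These 4 genes, Calm2 and Calm3 are given for their role, outside the rule on size, and with their values known.

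In the calcineurin arm, the phosphatases that oppose the kinases and their NFAT targets, 9 of 15 tested genes were positive and the median was 0.00. The catalytic subunit gene Ppp3cc (0.20, SE 0.20) and the transcription factor gene Nfatc4 (0.16, SE 0.10) had the largest differences at 5 CPM or more, both with overlap. Of 29 tested substrates and activity-dependent targets, 9 were positive and 20 negative, with a median of -0.06. The NMDA receptor subunit gene Grin2b, whose protein docks CaMKII, was at 63.3, 55.6 and 59.6 CPM in WT and 64.8, 39.7 and 51.2 CPM in cKO (-0.20, SE 0.16). Within cKO this is the order of libraries seen in Camk4, with cKO replicate 1 high and cKO replicate 2 low. The CREB coactivator gene Crtc2 was at 0.15 (SE 0.15).

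Calcium stores and pumps had 7 positive and 9 negative genes of 16, none without overlap, with the store-operated channel gene Orai3 (0.25, SE 0.18) and the plasma membrane pump gene Atp2b4 (-0.17, SE 0.17) farthest from 0 at 5 CPM or more. The 3 larger values in the pathway belonged to genes under that level, chosen for mention after their values were seen. They were Itpr3 (0.79, SE 0.56), Nfatc1 (0.70, SE 0.43) and Egr1 (0.46, SE 0.72), each highest in cKO replicate 3, the library with epidermal and mesenchymal transcripts, and overlapping between genotypes.

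**Figure D5:**
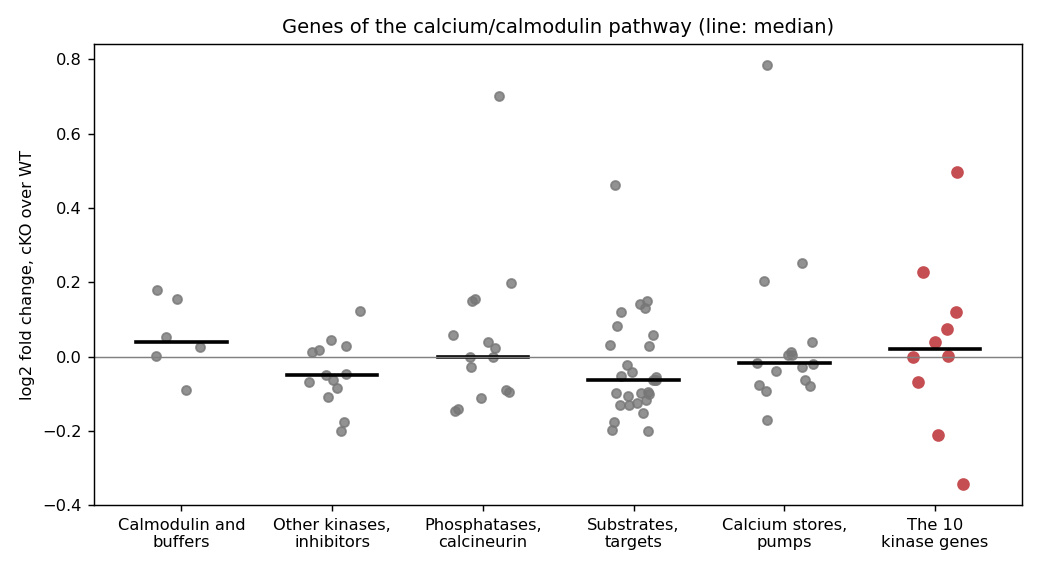
Log2 fold change of cKO over WT for the 79 tested genes of the pathway list by part (grey) and for the 10 kinase genes (red), with the median of each as a line. Medians lie between -0.06 and 0.04, and the grey points above 0.4 are the weakly expressed Itpr3, Nfatc1 and Egr1.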

How the data were processed

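Cortical RNA from 3 WT and 3 Ybx1 cKO embryonic samples at E13.5 was extracted with Trizol and sequenced as mRNA libraries. The authors deposited 1 table with estimated counts and TPM per gene and library. The submitters' processing notes name HISAT2 (version 2.2.1), Bowtie2 (version 2.4.5) and RSEM (version 1.3.1) with GRCm38 (mm10). The strand setting and the annotation used in counting are not given in the sources used here. Of the deposited estimated counts, 10.95% were not whole, and all were rounded. The TPM values, deposited by the authors, were used for levels between genes. The 6 FPKM columns and 6 columns of authors' averages, 12 in all, were not used.

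Genes were filtered with filterByExpr (minimum count 10, minimum total 15), scaled by TMM and fitted over all genes with edgeR's quasi-likelihood test (edgeR 4.0.16, R 4.3.3), with Benjamini-Hochberg adjustment at 0.05. Log2 CPM used a prior count of 2. The alternatives were RLE scaling, other filters, a replicate block, each library left out, WT replicate 2 and cKO replicate 3 left out together, DESeq2 (1.42.0), limma-voom and limma (3.58.1) on log2(TPM + 1) and log2(TPM + 0.1). The kinase genes, the pathway list and the marker lists were chosen with earlier results of these data known. All 10 kinase genes were named, with the 2 pathway genes of largest absolute log2 fold change per part at a mean of at least 5 CPM, any pathway gene called, and the 5 genes most like Camk2a. Gene positions are RefSeq spans on GRCm38.p6. Of the muscle markers, Myod1 and Myog were not analysed here.

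The replicates are described as independent, but neither the embryos behind each library nor which libraries shared a sequencing batch is stated. The series text mentions 3 batches, so batch could not be entered except through the replicate number, and p-values measure the spread between these samples. At this depth, 3 counts correspond to 0.181 to 0.188 CPM. The counting error given for Camk2a covers counting error only. Correlations between libraries ran from 0.986 to 0.997 (Spearman), and no pair of libraries shared more than 1.66% of equal counts, so all 6 were kept as separate samples.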

Additional observations from a re-analysis of the deposited data

How the results depend on the processing

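The log2 fold change of Camk2a, chosen for its higher level in cKO and without overlap between genotypes, ran from 0.45 (limma on log2(TPM + 1)) to 0.55 (without WT replicate 3) over 15 other settings, and its sign there supports nothing. The count of pathway genes called stayed at 0. Over all genes, the counts called higher and lower were 1 and 1 with the replicate block, 1 and 1 without WT replicate 2 and cKO replicate 3, and 2 and 2 with DESeq2, against 0 and 0. With 1 library left out they ran from 0 to 1 in each direction, reaching 1 without WT replicate 2. The cause was not tested. The rise in the Camk2a share of CaMKII was 3.01 percentage points from TPM and 3.83 from CPM, where gene length is not taken out, and 2.61 to 3.42 with 1 library left out. By CPM, 5 of the 10 kinase genes kept their place in the WT order, and with 1 library left out 6 to 10 did, the 6 without WT replicate 1 or without WT replicate 3. With the replicate block the log2 fold change of Camk2a was 0.50. Deviations of same-numbered libraries correlated at 0.41, 0.31 and -0.02, which does not settle whether such libraries shared a batch. The numbers were not taken to pair the samples, because the labels do not say which libraries share one. No scaling shifted the median gene by more than 0.02 on the log2 scale. The number of libraries, 3 a group, limits the precision, with SEs of 0.07 to 0.23 for the kinase genes.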
